A study of Mus musculus with 6 samples.

Results

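The 9 complement genes described here are C1ra, C1s1, C4b, C3, Cfb, Cfd, Serping1, Cd55 and Cd59a, chosen by name out of 22483 genes in the deposited table, and all 9 have a value in every library. The libraries are from stromal cells of mouse skeletal muscle. Young adult Swiss white mice received cardiotoxin, a venom toxin that destroys muscle fibers, at 20 uM, and cells were taken on day 3. Untreated muscle of the other leg was the control. Mononuclear cells negative for CD45, CD31 and CD11b (marks of blood, endothelial and myeloid cells) were sorted by CD140a (the PDGF receptor alpha, gene Pdgfra) and Sca1 (gene Ly6a). The sorts kept were CD140a(-)/Sca1(+), CD140a(+)/Sca1(-) and cells with both marks, CD140a(+)/Sca1(+). Each of the 3 subpopulations gave 1 library in each state, 6 in all, and the number of mice pooled in a library is not given in the sources used here. The labels name tibialis anterior as the muscle, whereas the text of the study gives gastrocnemius and soleus for acute injury, and no genetic modification is given for any group. All cells were held for some hours at body temperature after digestion, before staining and sorting. The study also describes daily injections of BrdU, a thymidine analog, without naming groups that were spared them, and gives the lowest sort purity for control CD140a(+)/Sca1(+) cells.

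Complement is a chain of serum and membrane proteins that marks cells and debris for removal. In the classical pathway the proteases C1r and C1s, bound to C1q, cleave C4 and C2 to form an enzyme that cleaves C3. In the alternative pathway factor D cleaves factor B bound to C3b, which amplifies C3 cleavage. The C1 inhibitor (Serping1) blocks C1r and C1s, CD55 speeds the decay of the C3-cleaving enzymes, and CD59 stops the assembly of the membrane attack complex. Liver makes most of the serum proteins, while fibroblasts and macrophages make several of them locally, and factor D is known as adipsin from fat cells.

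Levels are normalized counts, obtained by undoing the variance stabilizing log2 transformation of the deposited values. The library kit reads about 1 tag per transcript at its 3' end, so levels of different genes can be set side by side. Estimated depth ran from 2094353 to 14173590 reads, and both CD140a(-)/Sca1(+) libraries were the deepest. The injured CD140a(+)/Sca1(-) library stood apart, with 69.1% of genes listed at 0 against 28.2% to 39.0% in the other 5. Among 5274 genes that reached 20 normalized counts in all the other libraries, it had 928 at 0. Ly6a followed the sort in control muscle (5850 normalized counts in CD140a(-)/Sca1(+), 70.4 in sorted CD140a(+)/Sca1(-) cells and 253 in sorted CD140a(+)/Sca1(+) cells). Pdgfra went against the labels there, at 211 in the library labelled CD140a(-)/Sca1(+), 33.6 in sorted CD140a(+)/Sca1(-) cells and 26.3 in sorted CD140a(+)/Sca1(+) cells, so the names below are sort labels. After injury Ly6a was at 1177, 2.09 and 4099 and Pdgfra at 335, 203 and 1240 in the same order. Both sort genes were thus far higher in the injured than in the control CD140a(+)/Sca1(+) library. With 1 library per group there is no replicate spread. Tests across genes (limma on the deposited log2 values) take their error from how far injury changes differ between subpopulations. Ratios of 2 libraries carry 95% intervals that cover counting error only. Where 1 library is at 0, "at least" sets the other count against 3 reads and leaves out the counting error of that other count. Fewer cells of a type and less RNA per cell cannot be told apart in these libraries. "Rose" and "fell" are kept for an unadjusted p under 0.05 with a change of at least 3-fold.

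In control muscle the complement genes were carried mostly by CD140a(-)/Sca1(+) cells, where C3, Cfb, C4b, C1ra, Serping1 and Cd55 were each at their highest control level. After injury the summed levels were closer, though not those of each gene. The summed level of the 9 genes was 2945 normalized counts in control CD140a(-)/Sca1(+) cells, 650.1 in sorted CD140a(+)/Sca1(-) cells and 216.5 in sorted CD140a(+)/Sca1(+) cells. On day 3 it was 1926, 1051 and 1413 in the same order. The highest sum was thus 13.6 times the lowest in control muscle and 1.83 times the lowest after injury. The sums are led by Cfb, C1ra, Serping1 and Cd59a. C4b was 25.5-fold apart between its highest and lowest sort in control muscle and at least 28.1-fold apart after injury, and Cd55 was 21.4-fold and at least 9.99-fold apart, with the sparse library at 0 for both.

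**Figure D1:**
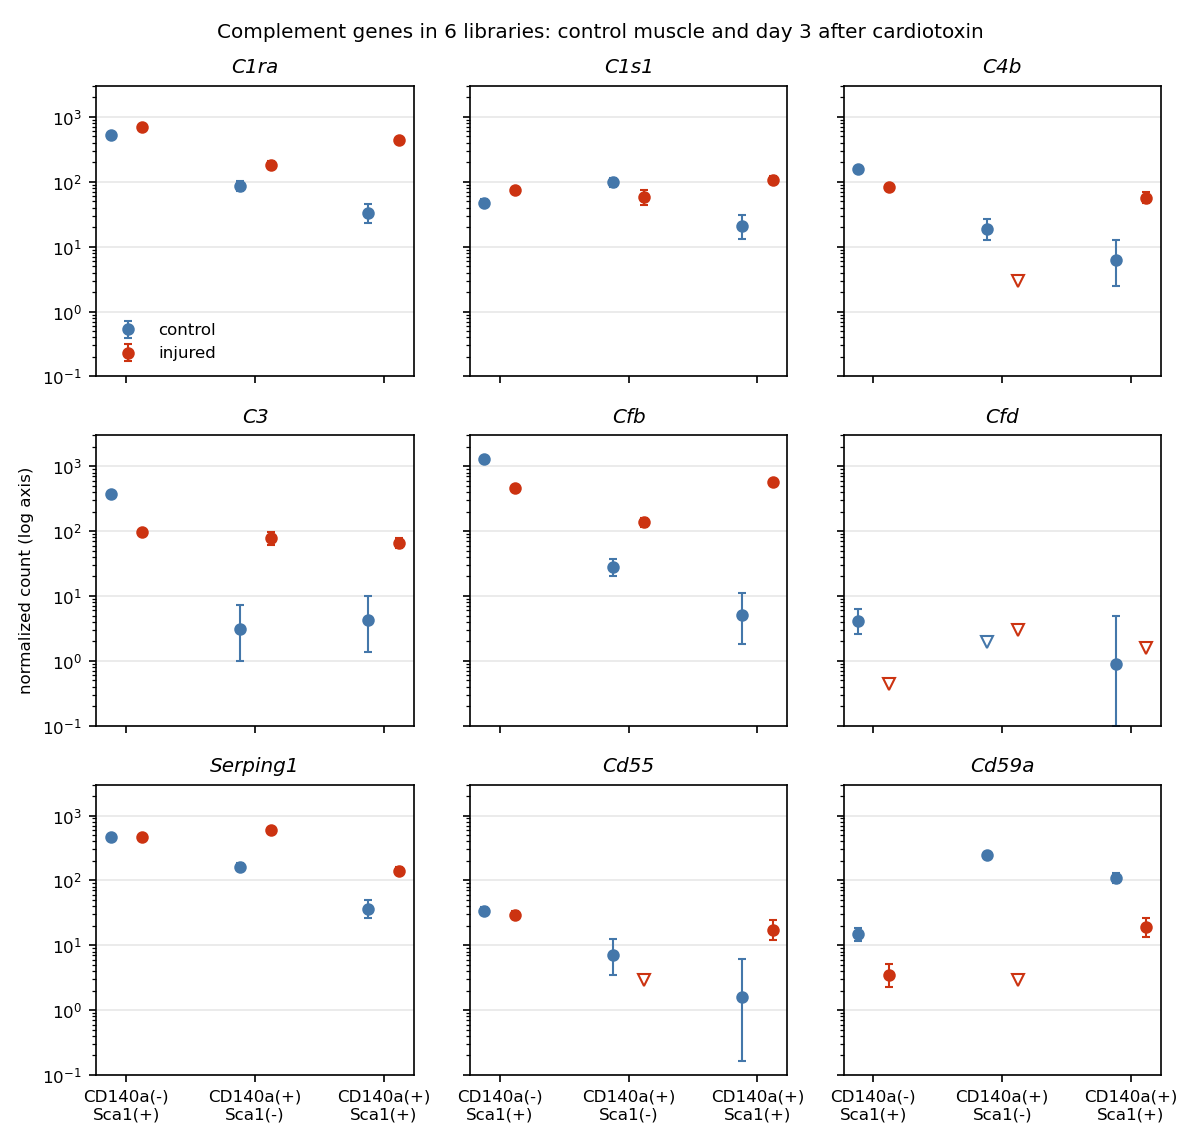
Normalized count of each complement gene (log axis) in the 6 libraries, with control and injured libraries of each sorted subpopulation side by side. Bars are 95% counting intervals and open triangles are libraries listed at 0, drawn at the level of 3 reads. In control muscle C3 stood at 376 in CD140a(-)/Sca1(+) cells and at 3.12 and 4.28 in the others, and after injury its 3 levels lay between 65.6 and 95.3.

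C1ra and C1s1 encode the proteases that start the classical pathway. C1ra lies at 6:124512405-124523443 (GRCm38, plus strand) and C1s1 at 6:124530345-124542359 (minus strand), with their 3' ends facing each other across 6901 bases. C1ra stood at 529 normalized counts in control CD140a(-)/Sca1(+) cells, 86.7 in sorted CD140a(+)/Sca1(-) cells and 32.7 in sorted CD140a(+)/Sca1(+) cells. On day 3 it was 701, 182 and 438 in the same order. Every injured library was above its own control, by 1.33-fold (1.27 to 1.39), 2.09-fold (1.67 to 2.63) and 13.4-fold (9.65 to 19.2), and CD140a(-)/Sca1(+) was the highest in both states. The mean change, a log2 change of 1.58 (SE 0.70), did not pass the test (adjusted p = 0.636 by limma with Benjamini-Hochberg adjustment over 15532 genes). C1s1 had another order, at 47.9, 99.3 and 20.8 normalized counts in control cells and 75.7, 57.5 and 107 after injury. Unlike C1ra and C4b, it had its control peak in CD140a(+)/Sca1(-) cells. After injury, its levels in CD140a(-)/Sca1(+) and CD140a(+)/Sca1(-) cells could not be separated at this depth (ratio 1.32, 0.998 to 1.74). The mean log2 change of C1s1 was 0.59 (SE 0.64), and without the CD140a(+)/Sca1(+) pair it was -0.06, so it did not pass.

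C3 encodes the protein on which all complement pathways meet, and C4b encodes C4. C3 lies at 17:57203970-57228136 (minus strand). The C3 level was 376 normalized counts in control CD140a(-)/Sca1(+) cells, 3.12 in sorted CD140a(+)/Sca1(-) cells and 4.28 in sorted CD140a(+)/Sca1(+) cells. The 2 low values rest on 4.85 estimated reads each and did not differ beyond counting error (ratio 1.37, 0.316 to 5.97). Injured cells stood at 95.3, 77.0 and 65.6. C3 was therefore 121-fold (50.1 to 361) and 87.8-fold (36.4 to 263) higher in CD140a(-)/Sca1(+) than in the other sorts in control muscle, and 1.24-fold (0.983 to 1.60) and 1.45-fold (1.195 to 1.77) higher after injury. The injury change had opposite directions, since C3 was 3.95-fold lower (3.61 to 4.32) after injury in CD140a(-)/Sca1(+) cells and 24.7-fold (9.79 to 75.5) and 15.3-fold (6.21 to 46.7) higher in the 2 CD140a(+) sorts.

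The 250 bases before the C3 start are shown because C3 had the widest ratio between sorts in control muscle among the genes with a RefSeq promoter entry, and beside them those of C1ra, which was higher in all 3 injured libraries. Capitals mark matches, on either strand, to TTNNGNAA (a form bound by C/EBP factors) and a loose NF-kB form (GGG and CC with 5 bases between them). In C3, 3 matches to TTNNGNAA lie 70 to 63, 58 to 51 and 45 to 38 bases before the start, and those of C1ra lie 72 to 65 and 29 to 22 bases before its RefSeq start. That RefSeq start lies downstream of the C1ra start given above (124512405), so most of the C1ra window is inside the gene span given there.
C3, chr17:57228137-57228386, minus strand, GRCm38.p6: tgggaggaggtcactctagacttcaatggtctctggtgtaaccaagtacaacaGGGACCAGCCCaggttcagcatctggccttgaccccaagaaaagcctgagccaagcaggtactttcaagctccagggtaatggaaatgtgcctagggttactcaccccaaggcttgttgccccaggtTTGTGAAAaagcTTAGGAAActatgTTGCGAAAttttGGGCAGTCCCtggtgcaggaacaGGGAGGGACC
C1ra, chr6:124512371-124512620, plus strand, GRCm38.p6: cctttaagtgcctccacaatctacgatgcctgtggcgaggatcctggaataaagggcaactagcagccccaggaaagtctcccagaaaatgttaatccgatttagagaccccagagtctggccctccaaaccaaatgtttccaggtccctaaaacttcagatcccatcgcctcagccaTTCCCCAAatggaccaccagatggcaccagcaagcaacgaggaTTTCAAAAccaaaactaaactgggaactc
RefSeq windows (250 bases before to 50 after the start) were at hand for 6 of the 9 genes. C1s1 had 2 windows, and a gene was counted if any of its windows matched, while the shares are of single windows. TTNNGNAA was found in 3 of the 6 (C3, C1s1 and C1ra) and in 40.7% of all 32851 windows, and the loose NF-kB form in 5 of the 6 (all but C1ra) and in 50.8%, with overlapping matches marked as 1 run. TTCNNNGAA, a form bound by STAT dimers, was found in C1ra alone, after the start, and in 8.3% of all windows. TATAAA was found in C3 alone, also after the start, and in 13.6%. These matches are letters in a window and were not set against binding data.

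C4b lies at 17:34728380-34743882 (minus strand). C4b was at 158 normalized counts in control CD140a(-)/Sca1(+) cells, 18.6 in sorted CD140a(+)/Sca1(-) cells and 6.18 in sorted CD140a(+)/Sca1(+) cells. After injury it was at 82.7, listed at 0, and at 56.7. Its level was 1.91-fold lower (1.71 to 2.13), at least 6.33-fold lower and 9.18-fold higher (4.30 to 23.4) after injury, so the 3 sorts did not share a direction. The 0 belongs to the sparse library, in which 70.1% of the 3261 genes with 5 to 20 counts in its control were at 0. Without that pair the mean log2 change of C4b was 0.63 in place of -0.35 (SE 0.88), and neither passed the test. The last 300 transcript bases of C4b and its neighbor copy C4a are 97.7% identical, so reads of the pair could be split or shared. C4a itself was not found in the deposited table, so the 2 could not be compared.

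Factor B and factor D drive the alternative pathway. Cfb lies at 17:34856374-34862518 (minus strand), 85 bases from C2. Cfb had the highest level of the 9 genes in 2 libraries, with 1316 normalized counts in control CD140a(-)/Sca1(+) cells against 28.1 in sorted CD140a(+)/Sca1(-) cells and 5.09 in sorted CD140a(+)/Sca1(+) cells. After injury the 3 levels were 466, 137 and 569. In CD140a(+)/Sca1(+) cells Cfb went from 5.76 to 1073 estimated reads, a level 112-fold higher (49.2 to 293), and it made up 40.2% of the summed complement level there after 2.3% in the control. CD140a(+)/Sca1(-) cells were 4.87-fold higher (3.42 to 6.94), and CD140a(-)/Sca1(+) cells 2.82-fold lower (2.71 to 2.94). The injured CD140a(+)/Sca1(+) library was 1.22-fold (1.14 to 1.31) above CD140a(-)/Sca1(+), where its control had been 259-fold (114 to 677) below. The 1.22-fold gap sets 1 library against 1, so it does not establish a changed order of the sorts. Cfd (10:79890853-79892655, plus strand) was near the limit of detection. It had 22 reads (4.12 normalized counts) in control CD140a(-)/Sca1(+) cells, 1 read in control CD140a(+)/Sca1(+) cells and was at 0 in the other 4 libraries. In the deepest library, injured CD140a(-)/Sca1(+), a count of 0 allows up to 0.439 normalized counts, so Cfd was at least 9.40-fold lower there than in its control. The 9 fat cell markers summed to 2464, 2783 and 29580 normalized counts in control CD140a(-)/Sca1(+), CD140a(+)/Sca1(-) and CD140a(+)/Sca1(+) cells and to 116, 177 and 327 in injured ones, lower after injury in each sort. Most of each control sum was Fabp4, a lipid carrier of fat and endothelial cells (2318, 2590 and 29146). The lipases Lipe and Pnpla2 were at 23.9 and 107 in control and 0.60 and 49.1 in injured CD140a(-)/Sca1(+) cells, and at 66.6 and 347 in control CD140a(+)/Sca1(+) cells. Of the other markers, Plin1 reached 21.9 and Lep 0.15 at most. Adipoq and Adrb3 went against the sum in CD140a(-)/Sca1(+) cells, at 3.00 and 1.12 in control and 10.4 and 3.36 after injury. The part of fat cells in the level of Cfd was not tested.

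Of the regulators, Cd59a was the only one of the 9 genes that passed the injury test, and Serping1 was above it in every library but the 2 control CD140a(+) libraries. Serping1 (2:84765387-84775444, minus strand) stood at 466 normalized counts in control CD140a(-)/Sca1(+) cells, 163 in sorted CD140a(+)/Sca1(-) cells and 36.2 in sorted CD140a(+)/Sca1(+) cells. After injury it was at 471, 598 and 140. It was level in CD140a(-)/Sca1(+) cells (ratio 1.01, 0.960 to 1.07), and 3.66-fold (3.16 to 4.26) and 3.88-fold (2.78 to 5.53) higher in the CD140a(+) sorts. In the injured CD140a(+)/Sca1(-) library Serping1 alone was 56.9% of the summed complement level. Its mean log2 change was 1.17 (SE 0.58), which did not pass the test.

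Cd55 (1:130439027-130462744, minus strand) was at 34.2 normalized counts in control CD140a(-)/Sca1(+) cells, 6.99 in sorted CD140a(+)/Sca1(-) cells and 1.60 in sorted CD140a(+)/Sca1(+) cells. It was at 29.4, 0 and 17.3 after injury. CD140a(+)/Sca1(+) cells were 10.8-fold higher after injury (2.53 to 85.2), a wide interval since the control rests on 1.81 estimated reads. In CD140a(-)/Sca1(+) cells the control and the injured level did not differ beyond counting error (1.16-fold lower, 0.945 to 1.43). The 0 is again in the sparse library, and the mean log2 change of -0.06 (SE 0.68) did not pass the test.

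Cd59a (2:104095801-104115354, plus strand) was lowest in control CD140a(-)/Sca1(+) cells, the sort in which C3, Cfb, C4b, C1ra, Serping1 and Cd55 peaked. It was at 244 normalized counts in control CD140a(+)/Sca1(-) cells, 109 in sorted CD140a(+)/Sca1(+) cells and 14.8 in sorted CD140a(-)/Sca1(+) cells. In both control CD140a(+) sorts it was the most abundant of the 9 genes, with 37.5% and 50.3% of the sum. After injury it was listed at 0, at 19.1 and at 3.52, lower in all 3 sorts by at least 82.9-fold, by 5.69-fold (3.90 to 8.50) and by 4.22-fold (2.64 to 6.97). Cd59a fell by 2.82 on the log2 scale (SE 0.90, adjusted p = 0.549 by limma with Benjamini-Hochberg adjustment). Without the CD140a(+)/Sca1(-) pair, which holds the sparse library, the change was -1.51 and under 3-fold. In that library 13.2% of 2520 genes with 100 to 500 counts in its control were at 0. The Schwann cell markers S100b, Mbp and Sox10 had the same order as Cd59a in control muscle. S100b stood at 460 normalized counts in control CD140a(+)/Sca1(-) cells, 84.7 in sorted CD140a(+)/Sca1(+) cells and 16.3 in sorted CD140a(-)/Sca1(+) cells, Mbp at 339, 109.5 and 21.2, and Sox10 at 73.2, 11.5 and 2.62. After injury none of these 3 genes exceeded 9.01 in any library, and the part of Schwann cells in the change of Cd59a was not tested. The 250 bases before its start are shown because they hold the only match among the 6 windows to the core of the interferon response element (GAAA, 2 bases, GAAA), found in 3.44% of all windows.
Cd59a, chr2:104095551-104095800, plus strand, GRCm38.p6, with that match and 1 match to the loose NF-kB form in capitals: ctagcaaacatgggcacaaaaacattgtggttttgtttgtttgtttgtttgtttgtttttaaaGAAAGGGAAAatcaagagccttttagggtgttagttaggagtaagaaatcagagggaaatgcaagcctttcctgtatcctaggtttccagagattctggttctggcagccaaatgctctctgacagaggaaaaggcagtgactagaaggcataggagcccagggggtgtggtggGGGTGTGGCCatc

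The study set injured against control cells, and this comparison was made with subpopulation as a block. Of the 9 genes 1 fell (Cd59a) and 0 rose, against 3.46% of the 15532 tested genes that fell (537) and 2.30% that rose (357). On log2(normalized count + 1) the split over all genes was 866 and 301, and the median of all genes moved from -0.33 to -0.58. Median ratio scaling, run on that same scale, gave 1025 and 282 with a median of -0.67. Cd59a remained the 1 member called in both. The median log2 change was 0.59 over the 9 genes and -0.33 over all tested genes, and without the CD140a(+)/Sca1(+) pair it was -0.06 and -0.50. In this limma fit 0 genes of the table had an adjusted p under 0.05 (lowest 0.192), while 1241 had an unadjusted p under 0.05. Cfb changed by 1.92 (SE 1.22) and C3 by 1.17 (SE 0.99) on the log2 scale, short of the threshold. Without the CD140a(-)/Sca1(+) pair both rose, Cfb by 3.62 and C3 by 2.69, each with an adjusted p of 0.836. Without the CD140a(+)/Sca1(-) pair C1ra rose by 1.88 (adjusted p = 0.43).

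**Figure D2:**
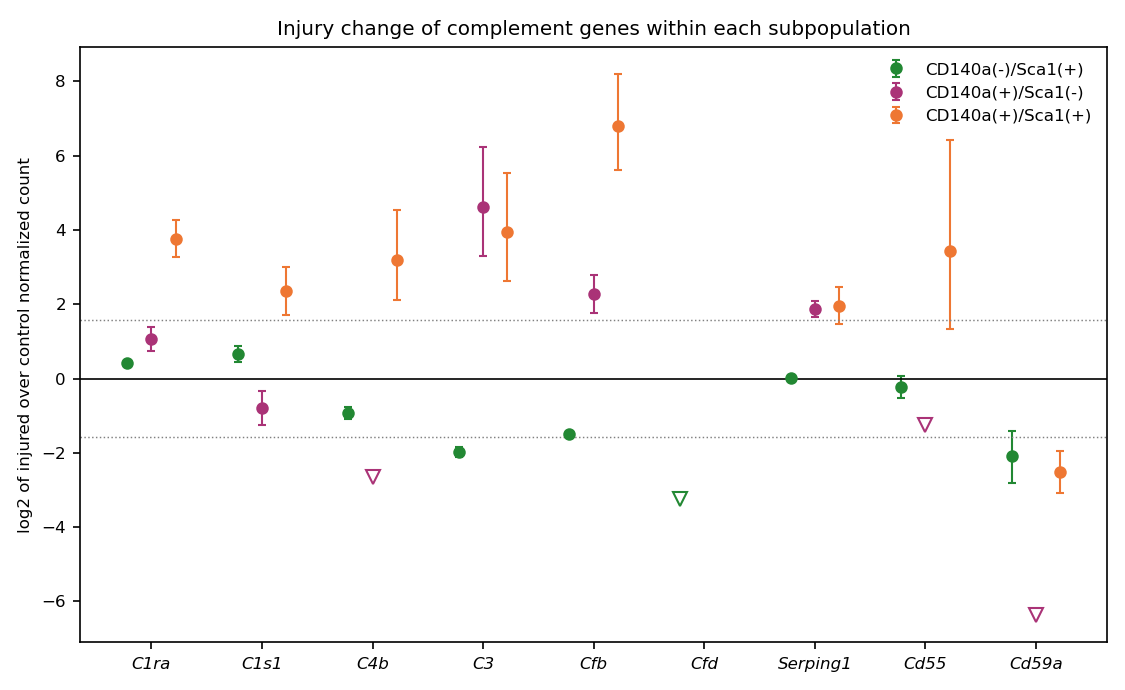
Ratio of injured to control normalized counts of each gene within each sorted subpopulation (log axis). Bars are 95% counting intervals, open triangles are bounds where the injured library is at 0, and dotted lines mark 3-fold. In CD140a(+)/Sca1(+) cells 7 genes lay past the upper line, against 20.9% of all genes above the floor of 3 reads in either library. In CD140a(-)/Sca1(+) cells none did, against 7.81%.

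Within single subpopulations, 0 of 9 genes were at least 3-fold higher after injury in CD140a(-)/Sca1(+) cells and 3 (C3, Cd59a and Cfd) at least 3-fold lower, against 7.81% and 20.7% of the 14918 genes above the floor in either library. In CD140a(+)/Sca1(-) cells 3 of 8 genes above the floor were higher (Serping1, C3 and Cfb) and 2 lower (Cd59a and C4b), against 13.1% and 40.0% of 12272. In CD140a(+)/Sca1(+) cells 7 of 8 were higher (all but Cd59a), against 20.9% of 14008, and 1 was lower against 16.7%. These counts compare 1 library with 1 library and have no replicate check.

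The difference in the injury change between CD140a(-)/Sca1(+) cells and the mean of both CD140a(+) sorts was tested after the values were seen. The difference was -4.55 for C3 (SE 1.28) and -5.10 for Cfb (SE 1.87) on the log2 scale, and these 2 of 9 genes passed, against 0.502% of all genes in that direction. The adjusted p was 1 for both. C3 kept its call in all 8 alternative settings of scale, filter and scaling, and Cfb lost it in 5 of them. Over the 9 genes the median difference was -0.89, and over all genes it was 0.11.

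The levels themselves were compared in the same way, in contrasts that were also added after the values were seen. A share of members above that of all genes is therefore no independent support here. In these fits and the one above, the residual is only how far the injury changes of the 2 CD140a(+) sorts disagree. The SE of a gene is thus the same in both states, and no control level was replicated. In control muscle 4 of 9 genes were higher in CD140a(-)/Sca1(+) cells than in the mean of both CD140a(+) sorts, against 1.24% of all genes. The log2 differences were 4.92 for C3 (SE 0.90), 5.80 for Cfb (SE 1.32), 3.04 for C1ra (SE 1.13) and 2.39 for Serping1 (SE 0.90), each with an adjusted p of 1. C4b, at 2.98 (SE 1.55), and Cd59a, at -2.79 (SE 1.33), did not pass. Over 8 alternative settings on the same libraries C3 kept its call in all, while Cfb lost it in 1, Serping1 in 4 and C1ra in 5. After injury 0 of 9 passed in either direction, against 0.534% of all genes, and the differences for C3 and Cfb were 0.37 (SE 0.90) and 0.70 (SE 1.32). None of the 9 had an unadjusted p under 0.05 there. The median over the 9 genes was 2.39 in control and 0.67 in injured muscle, beside 0.17 and 0.22 over all genes.

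**Figure D3:**
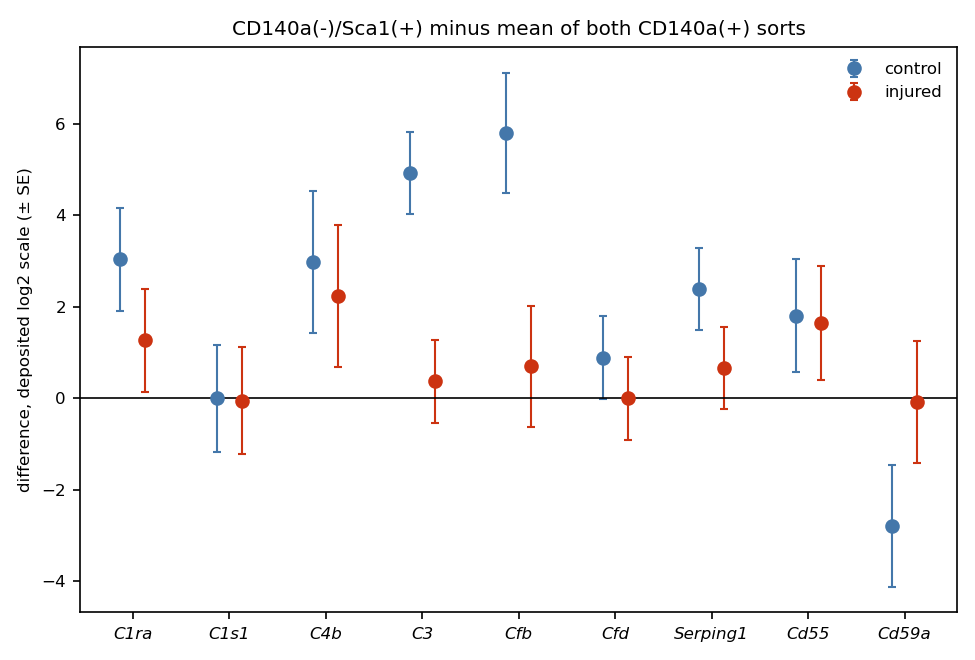
Difference in deposited log2 value between CD140a(-)/Sca1(+) cells and the mean of both CD140a(+) sorts for each gene, in control and in injured muscle, with the SE from limma as bars. C3 went from 4.92 in control to 0.37 in injured muscle and Cfb from 5.80 to 0.70, while Cd59a was below 0 in control muscle, at -2.79.

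Averaged over both states, CD140a(-)/Sca1(+) cells were higher than the mean of the other 2 sorts in 4 of 9 genes, against 1.33% of all genes. These were Cfb, by 3.25 on the log2 scale (SE 1.29), C3 by 2.65 (SE 1.05), C4b by 2.60 (SE 0.93) and C1ra by 2.16 (SE 0.74), each with an adjusted p of 0.998 in limma. Serping1, at 1.53, was under 3-fold. On the scale of log2(normalized count + 1) none of the 4 passed, with values in the same direction. CD140a(+)/Sca1(-) cells were lower in C4b alone (by -2.29, SE 0.93), against 3.73% of all genes, and without the sparse library that value was -0.82. CD140a(+)/Sca1(+) cells were lower in Serping1 alone (-2.22, SE 0.61), against 0.470% of all genes, and this held without the sparse library (-1.99). Leaving that library out also made CD140a(-)/Sca1(+) cells lower in Cd59a (-2.42) and CD140a(+)/Sca1(-) cells higher in it (2.21).

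**Figure D4:**
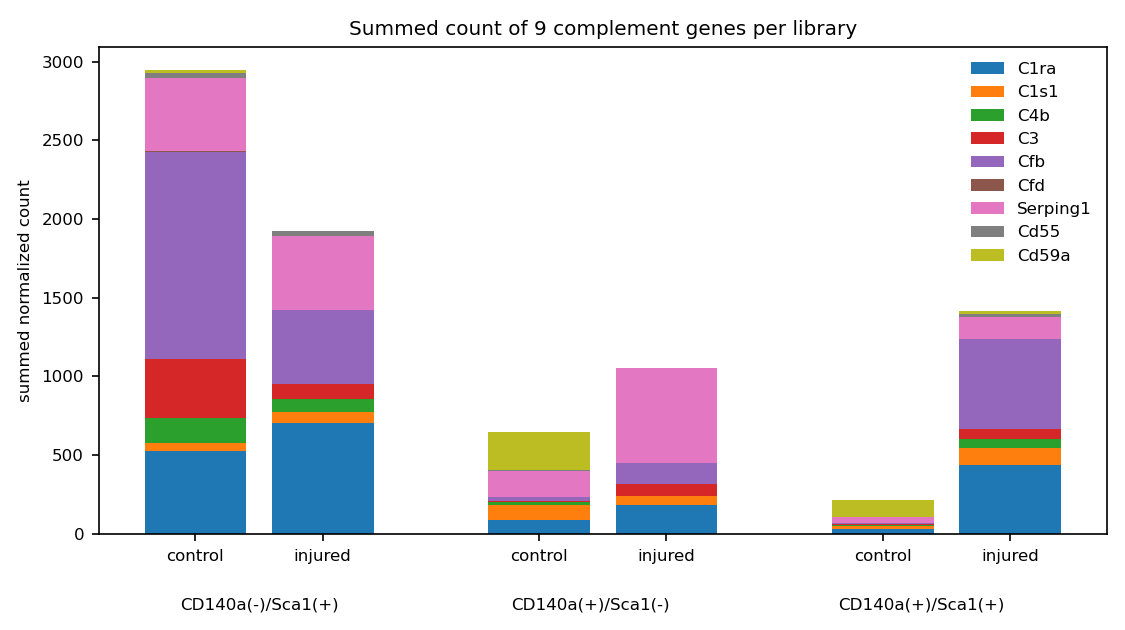
Summed normalized count of the 9 complement genes in each library, stacked by gene on an axis that starts at 0. The control sums run from 216.5 to 2945 and the injured sums from 1051 to 1926, and the leading gene differs, with Cfb at 44.7% in control CD140a(-)/Sca1(+) cells and Cd59a at 50.3% in control CD140a(+)/Sca1(+) cells.

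Markers of other cells the gate could hold moved with the sorts, and their part in the levels of the complement genes was not tested. The 11 fibroblast and progenitor markers summed to 13770 normalized counts in control CD140a(-)/Sca1(+) cells, 4864 in sorted CD140a(+)/Sca1(-) cells and 1191 in sorted CD140a(+)/Sca1(+) cells, the same order as C1ra, C4b, Cfb, Serping1 and Cd55. Ly6a, the gene of a sort mark, made up 5850, 70.4 and 253 of these control sums, and Dcn 4139, 3552 and 524. The order was not uniform. Cd34 and Col15a1 were highest in control CD140a(+)/Sca1(+) cells, and Ly6a, Pi16 and Dpt were lowest in control CD140a(+)/Sca1(-) cells. After injury the 11 markers summed to 11570, 6014 and 11380, with Ly6a at 1177, 2.09 and 4099. The 13 leukocyte markers summed to 757, 213 and 85.4 in control and to 444, 930 and 306 in injured cells, also highest in CD140a(-)/Sca1(+) cells before injury. In that control library S100a9 (185), Csf1r (168) and S100a8 (111) led the list, and Ptprc, which encodes CD45, stood at 20.5 there and at no more than 2.50 in any other. In injured CD140a(+)/Sca1(-) cells, where C3, Cfb and Serping1 were higher than in their control, Lyz2 was at 249 (21.8 in the control), Tyrobp at 222 (0), Cd68 at 114 (5.04) and Fcer1g at 87.4 (0). The list was not uniform there, since 5 of its 13 genes were at 0 in that injured library. Laptm5 (22.3 in the control), S100a9 (13.5) and S100a8 (10.9) went down to 0, and Ptprc and Cd52 were at 0 in both states. The genes of C1q, made mainly by macrophages, did not exceed 5.30 normalized counts anywhere. Endothelial markers (10 genes) summed to 2200, 794 and 2926 in control and 226, 51.7 and 280 in injured cells. Pericyte and smooth muscle markers (8 genes) summed to 309 to 963 over the 6 libraries, and markers of muscle fibers and satellite cells (5 genes) to 51.2 at most.

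Of 46 further complement genes, 45 were in the table and 28 were tested. Of these 45, 9 were listed at 0 in all libraries and 28 stayed under 10 normalized counts in each, among them the late components C6, C7 and C9, so the pathway beyond the 9 genes was thinly measured. After injury 1 of 28 rose and 3 fell, beside 2.30% and 3.46% of all tested genes, with a median log2 change of -0.45 beside -0.33 over all genes. C3ar1, the receptor of the C3a fragment, rose by 1.70 (SE 0.68, adjusted p = 0.623). It stood at 37.7, 3.21 and 13.2 normalized counts in control and 46.3, 103 and 61.5 in injured CD140a(-)/Sca1(+), CD140a(+)/Sca1(-) and CD140a(+)/Sca1(+) cells. Cd93, a membrane protein of endothelial cells, fell by 3.53 (SE 0.58, adjusted p = 0.289). It was at 428, 153 and 1264 in control and 74.6, 1.96 and 55.6 in injured cells, in the company of the endothelial markers. The regulators Cd46 and Clu fell by 2.37 (SE 0.49, adjusted p = 0.383) and 1.89 (SE 0.53, adjusted p = 0.489). Cd46 was at 16.1 to 29.1 normalized counts in the controls and at 0 in all 3 injured libraries, at least 66.4-fold, 5.47-fold and 10.2-fold lower, so this regulator, like Cd59a, was lower in every injured sort. Cr1l, the rodent membrane regulator Crry, stood at 89.6 before and 78.3 after injury in CD140a(-)/Sca1(+) cells and at 72.7 and 91.7 in CD140a(+)/Sca1(+) cells, and went from 109 to 4.04 in CD140a(+)/Sca1(-) cells with the sparse library. C5ar2, a receptor of C5a, ranged from 2.97 to 46.4, Colec12, a scavenger collectin, from 11.3 to 93.2, and C1qbp, a mitochondrial protein that binds C1q, from 107 to 241.

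In the sort contrasts 1 of the 28 genes was higher in CD140a(-)/Sca1(+) cells, against 1.33% of all genes. This was C1rb, a near copy of C1ra (log2 difference 1.70, SE 0.64), with 46.1 normalized counts in control and 41.2 in injured cells. It was at 7.71 and 0.98 in CD140a(+)/Sca1(-) and 5.30 and 24.4 in CD140a(+)/Sca1(+) cells, which is the order of C1ra in each state. CD140a(+)/Sca1(-) cells were lower in 2 of the 28, against 3.73% of all genes. These were Itgb2, the beta chain of the complement receptor integrins (-1.86, SE 0.57), and Cd93 (-2.52, SE 0.62). Itgb2 was at 0 in both libraries of that sort, and Cd93 at 1.96 in the sparse one. CD140a(+)/Sca1(+) cells were higher in Cd93 alone (1.70, SE 0.62), against 1.32% of all genes. Each of these sort calls had an adjusted p of at least 0.615 in limma. Other paralogs were low: C1s2 did not exceed 12.0, C1rl 17.6 and Cd59b 6.43 normalized counts, and Cd55b was at 0 throughout. The last 300 transcript bases were 64.9% identical between C1s1 and C1s2, 47.3% between C1ra and C1rb, 48.0% between Cd59a and Cd59b and 48.2% between Cd55 and Cd55b.

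Genes with the most similar profiles were found by the root mean square difference between log2 profiles, each centred on its mean, over the 6 libraries, among 3467 genes whose mean reached 100 normalized counts. For C3 these were Tnfrsf1b (0.40) and Irgm2 (0.45), and for Cfb Ptx3 (0.61) and Mmp3 (0.63). Tnfrsf1b, which encodes a TNF receptor, stood at 344, 3.90 and 15.9 in control and 153, 135 and 129 in injured cells of the CD140a(-)/Sca1(+), CD140a(+)/Sca1(-) and CD140a(+)/Sca1(+) sorts. C3 was at 376, 3.12 and 4.28 in control and 95.3, 77.0 and 65.6 in injured cells, so the likeness is one of shape and not of level. Ptx3, which encodes a secreted pentraxin, was at 1349, 32.1 and 3.50 in control and 1031, 161 and 289 in injured cells, beside Cfb. For C1ra the nearest were Errfi1 (0.38) and Axl (0.48), for C4b Arap1 (0.38) and Gsn (0.41), and for C1s1 Anxa2 (0.17) and Reep5 (0.21). For Serping1 they were Dusp10 (0.35) and Srf (0.39), for Cd55 Cast (0.31) and Stx11 (0.33), and for Cd59a Taldo1 (0.57) and Blvrb (0.73). Taldo1, a pentose phosphate enzyme, was at 4826 in control and 101 in injured CD140a(+)/Sca1(-) cells. Zfp36 (0.18) and Vcpip1 (0.20) were nearest to Cfd, whose profile lies almost wholly on the floor. Among the 9 genes, C4b and Cd55 were the closest pair (0.59), followed by C3 with Cfb and C3 with C1ra (0.92 each). All of these profiles share the same 6 libraries, including the sparse one.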

How the data were processed

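RNA of 6 libraries was read with a 3' mRNA kit on an Ion Proton. The authors trimmed reads with FastX-Toolkit, aligned them with STAR to GRCm38 (mm10) and counted and normalized them with BRB-seqtools and DESeq2. The deposited values are log2 values after the authors' size factors and variance stabilizing transformation, with a floor of 2.57 for a gene with no reads. This transformation was undone to give normalized counts, and the smallest step gave the value of 1 read. Since only 53.3% to 59.3% of low values (up to 50 reads) came within 0.02 of whole reads, no count model was run, and some member counts are fractional. A count of 0 is bounded by 3 reads.

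Of 22483 genes, 15532 had an 80th percentile of the linear deposited value of at least 8 and entered limma 3.58.1 in R 4.3.3, with terms for subpopulation and state (prior degrees of freedom 4.11, residual 2), tested on simulated data. All 9 members passed. A call needed a two-sided unadjusted p under 0.05 and a 3-fold change, the limits the study gives with its gene table (its text names a stricter p limit, which no member passed for injury), and Benjamini-Hochberg adjustment ran over all tested genes. Contrasts that set CD140a(-)/Sca1(+) against both CD140a(+) sorts within a state, and the difference in injury change, were added after the values were seen (residual 1, prior 3.54). The members and lists were chosen with earlier results of these data known. Named besides the 9 members are their paralogs, Ly6a, Pdgfra, further complement genes that were called or had a mean of at least 20 normalized counts, defining genes of the marker lists, and the 2 nearest profiles of each member. C1q, C6, C7 and C9 and the levels of Fabp4 were added after their values were seen. Coordinates are GENCODE M21 on GRCm38, and promoters are RefSeq on GRCm38.p6. Alternatives were other scales, filters, scalings and variance priors, no block and leaving out pairs or the sparse library. Median ratio scaling and CPM were run on log2 of the scaled value + 1, so they change the scale as well. Some genes of these lists that the rule would name are not reported here.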

Additional observations from a re-analysis of the deposited data

Results flagged for a closer look

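The injury change of 2 complement genes differed between subpopulations in a contrast chosen after the values were seen (limma, CD140a(-)/Sca1(+) against the mean of both CD140a(+) sorts). For C3 the difference was -4.55 on the log2 scale, with 376 normalized counts before and 95.3 after injury in CD140a(-)/Sca1(+) cells, 3.12 before and 77.0 after in CD140a(+)/Sca1(-) cells and 4.28 before and 65.6 after in CD140a(+)/Sca1(+) cells. For Cfb it was -5.10, with 1316 before and 466 after injury in CD140a(-)/Sca1(+) cells, 28.1 before and 137 after in CD140a(+)/Sca1(-) cells and 5.09 before and 569 after in CD140a(+)/Sca1(+) cells. Cfb lost its call in 5 of 8 alternatives and C3 in 0. The adjusted p was 1 for both, and 0.988 to 1.0 over the alternatives. In each gene 1 library of CD140a(-)/Sca1(+) cells moved down and both CD140a(+) libraries moved up.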

How the results depend on the processing

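Of 516 single-gene results under an alternative, 447 kept their direction and their side of the threshold, 41 lost the call, 14 gained one and 14 reversed. The causes were not tested. The count of members called after injury was 1, became 2 with an intensity trend (Cfb rose as well), and ran from 1 to 3 when 1 subpopulation pair was left out. The number of genes called stayed between 671 and 1307 (746 to 902 with a pair left out), and genes with an adjusted p under 0.05 numbered 15 with the filter on normalized counts, 95 with the trend and 73 without the CD140a(+)/Sca1(-) pair, against 0. The sort contrasts made 6 calls on 5 members (C4b in 2 contrasts), and 1 on log2(count + 1), 2 on log2(count + 8), 3 without a filter, 1 with median ratio scaling and 2 as CPM. The control muscle contrast called 4, and 2 on log2(count + 1), without a filter, with median ratio scaling and as CPM. The difference in injury change called 2, and 1 under log2(count + 1), log2(count + 8), no filter, median ratio scaling and CPM. Cfb in control muscle had an adjusted p of 0.00127 with the trend. None of the reversed values was called. For the injury change they were 0.63 for C4b without the CD140a(+)/Sca1(-) pair (range with a pair left out -1.58 to 0.63), -0.06 for C1s1 without the CD140a(+)/Sca1(+) pair (-0.06 to 1.24), and for Cd55 0.11 on log2(count + 8), 0.04 as CPM, 0.08 with quantile normalization and 0.66 without the CD140a(+)/Sca1(-) pair (-0.83 to 0.66). In the sort contrasts they were 0.01 for C1s1 on log2(count + 1), -0.35 and -0.40 for Cd59a on log2(count + 1) and with median ratio scaling, and 0.20 for Cfd without the sparse library. In the difference of changes they were 0.22, 0.02 and 0.17 for C1s1 (median ratio, CPM, quantile) and 0.09 for Cd55 (median ratio). The labels carry no replicate numbers, so the pairs are the control and injured libraries of each subpopulation, and dropping the subpopulation block changed no injury call of a member. Depth limits Cfd, with 22 reads at most, C3 in both CD140a(+) controls (4.85 reads each), and Cfb (5.76) and Cd55 (1.81) in control CD140a(+)/Sca1(+) cells.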
